A study of Mus musculus with 6 samples.

Results

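Regulated exocytosis in the lacrimal gland (LG), which secretes the watery part of tears, was followed here through 10 genes for Rab GTPases, SNAREs and their partners, which were taken by name (Rab27a, Rab27b, Rab3d, Rab11a, Vamp2, Vamp8, Snap23, Stx3, Stxbp2 and Sytl1). All 10 had a row among the 12491 protein-coding genes of the deposited table, and all 10 passed the filter on low values. RNA was sequenced from LGs of 3 T2DM samples and 3 vehicle samples, all from C57BL/6 mice. T2DM mice had a high fat diet and intraperitoneal STZ (streptozotocin, which is toxic to pancreatic beta cells), and by the study's methods they stayed on this diet until collection, whereas vehicle mice were kept on normal chow with injections of citrate buffer. Effects of diet, STZ and hyperglycemia therefore cannot be told apart. The labels give an age of 24 weeks for both groups and, for T2DM, also 24 weeks after treatment, which cannot both hold, since by the study's methods treatment began some weeks after birth. How many mice gave a library is not given in the sources used here, and p-values therefore measure only the spread between libraries, which may be technical.

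Secretory granules of acinar cells are filled in the Golgi, move to the apical membrane and fuse there when the gland is stimulated. Rab GTPases mark the granule and recruit effectors and motors to it. SNARE proteins on the granule and on the plasma membrane then pair to drive fusion, and SM proteins such as the product of Stxbp2 guide this pairing. Rab3d and Rab27b are known from lacrimal acinar cells as Rabs of mature granules, Vamp8 is the main granule SNARE of several exocrine glands, and Stx3 with Snap23 forms its partner at the apical membrane.

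Of the 10 genes, Stxbp2 was higher and Rab27b was lower in T2DM LGs, and the other 8 did not pass the test. FPKM (fragments counted per length of exon and per mapped fragments of the library, which allow levels of different genes to be compared) were tested with limma on log2(FPKM + 1), with Benjamini-Hochberg adjustment over 12135 genes whose mean reached 0.5 FPKM in either group. A call is an adjusted p under 0.05. The 1 member called higher stands beside 10.5% of all tested genes called higher, and the 1 member called lower beside 1.7% called lower. The T2DM libraries lay above all vehicle libraries for 3 members (Stxbp2, Vamp8 and Stx3) and below them for Rab27b, against 33.8% and 6.1% of tested genes. The median log2 fold change of the 10 genes was 0.18, and that of all tested genes was 0.16. Fold changes and calls on the deposited scale are against 0, with this shift not taken off. Median-of-ratios scaling of the libraries gave medians of 0.0023 for the members and 0.0024 for all genes. It left 0 members called higher (3.96% of all genes) and 1 called lower (3.99% of all genes), and upper-quartile scaling gave the same counts of members (4.42% and 3.5% of all genes). At an unadjusted p under 0.05 by limma, 3 members were higher and 1 was lower, against 28.5% and 4.57% of all genes. No member passed the study's thresholds as applied to limma's p and fold change, against 7.26% and 1.19% of all genes. On the deposited scale 8 members had a positive and 2 a negative fold change, and after median-of-ratios scaling 5 had a positive and 5 a negative one. Over all genes 1271 were called higher and 206 lower, and these counts were more than 1.5 times smaller when any 1 library was left out, except for the genes called higher without T2DM replicate 3 (886), and were smallest without vehicle replicate 3, at 25 and 16.

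**Figure D1:**
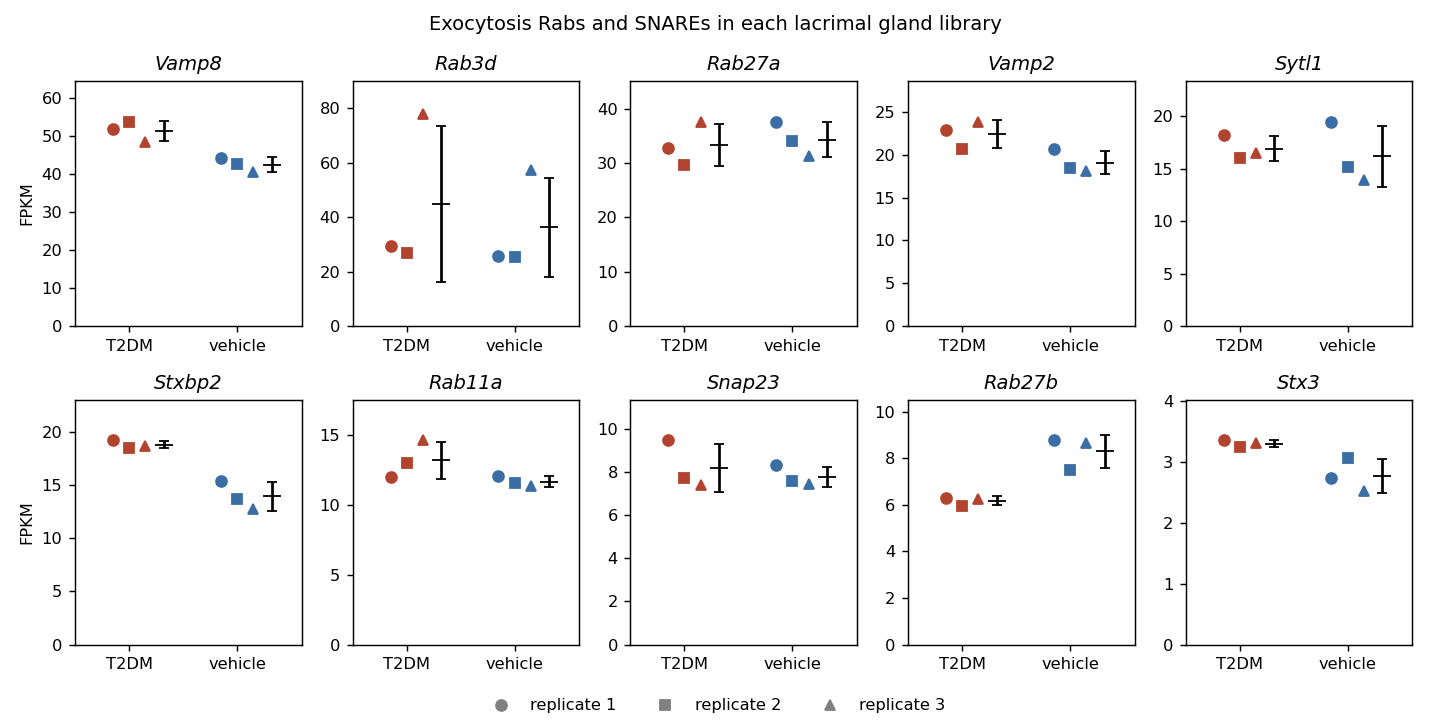
FPKM of the 10 genes in each library, ordered by mean level, with T2DM in red and vehicle in blue, marker shapes for the replicate number and black bars for the mean ± SD of 3 libraries. The 3 T2DM libraries lie above all vehicle libraries for Vamp8, Stxbp2 and Stx3 and below them for Rab27b, and Rab3d is high in replicate 3 of both groups.

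The 2 groups differed in transcripts of several cell types. Of 9 tested duct markers, 5 were higher (3 with median-of-ratios scaling), beside 10.5% of all genes (3.96% with that scaling), and their summed level was 1746 to 2842 FPKM in T2DM LGs and 1179 to 1313 FPKM in vehicle LGs. Ltf held the largest part of this sum, at 752.7 to 1594 FPKM in T2DM LGs and 468.6 to 571.0 FPKM in vehicle LGs. Of 7 myoepithelial markers, 4 were higher (1 with that scaling), with sums of 183.2 to 222.7 FPKM in T2DM LGs and 135.3 to 150.4 FPKM in vehicle LGs. Of 7 markers of B and plasma cells, 2 were higher (1 with that scaling), with sums of 304.9 to 383.9 FPKM in T2DM LGs and 175.0 to 268.4 FPKM in vehicle LGs. Jchain made up most of these sums, at 276.0 to 353.7 FPKM in T2DM LGs and 157.3 to 245.4 FPKM in vehicle LGs, and was not called. Of 7 acinar markers, 2 were lower (3 with that scaling), beside 1.7% of all genes (3.99% with that scaling), and 0 were higher by limma's adjusted p. At an unadjusted p under 0.05 limma had 2 higher and 3 lower, beside 28.5% and 4.57% of all genes. The linear model had 1 higher and 2 lower, beside 2960 and 488 of all 12135 tested genes. The median log2 fold change of the acinar list was 0.05, and its sum was 66633 to 82565 FPKM in T2DM LGs and 71217 to 75728 FPKM in vehicle LGs. Obp1a made up most of this sum, at 62649 to 78388 FPKM in T2DM LGs and 66236 to 71398 FPKM in vehicle LGs. Ltf, Jchain and Obp1a were named after their values were seen. Salivary transcripts summed to 0.394 to 3.41 FPKM in T2DM libraries, and to 2245 FPKM in vehicle replicate 1 against 6.62 to 11.01 FPKM in the other vehicle libraries. None of these markers with a row was at 0 in all 6 libraries, and the listed Cftr (duct), Smr2 and Muc19 (salivary) had no row. The lowest recurring step of FPKM, which rests on 2 to 8 genes per library, gave a depth of 0.972 to 1.06 times that of vehicle replicate 1 in T2DM libraries and 1.22 to 1.23 times in the other vehicle libraries. The part of cell makeup and depth in the results below was not tested.

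Sequence upstream of the members is shown for 3 of them, because Stxbp2 was the member called higher and because Rab27a and its effector gene Sytl1 hold the E-box forms CATATG or CAGCTG, as does Rab11a, with 1 CAGCTG. E-boxes (CANNTG) are bound by basic helix-loop-helix factors, among them Mist1, the product of Bhlha15, which keeps exocrine cells secretory and in mouse is known to act on Rab3d and Rab26 through the form CATATG. The windows run from 250 bases before to 50 bases after a start site, are from RefSeq on GRCm38.p6 and are printed in the direction of the gene, with each CANNTG in capitals. They lie at chr8:3630859-3631158 (plus strand) for Stxbp2, chr9:73063898-73064197 (plus strand) for the downstream of 2 start sites of Rab27a, and chr4:133263038-133263337 (minus strand) for Sytl1.
Stxbp2: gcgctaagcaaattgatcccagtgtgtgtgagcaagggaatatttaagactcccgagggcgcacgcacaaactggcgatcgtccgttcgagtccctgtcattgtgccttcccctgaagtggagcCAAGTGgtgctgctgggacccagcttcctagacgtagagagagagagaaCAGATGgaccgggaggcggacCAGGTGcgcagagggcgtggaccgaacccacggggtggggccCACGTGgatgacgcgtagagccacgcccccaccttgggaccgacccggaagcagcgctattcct
Rab27a: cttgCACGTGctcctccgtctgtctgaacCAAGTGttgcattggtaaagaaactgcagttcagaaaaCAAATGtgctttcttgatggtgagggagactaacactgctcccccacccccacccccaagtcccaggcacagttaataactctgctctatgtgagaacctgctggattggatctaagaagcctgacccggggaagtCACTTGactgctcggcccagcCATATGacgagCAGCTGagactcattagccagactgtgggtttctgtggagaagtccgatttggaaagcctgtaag
Sytl1: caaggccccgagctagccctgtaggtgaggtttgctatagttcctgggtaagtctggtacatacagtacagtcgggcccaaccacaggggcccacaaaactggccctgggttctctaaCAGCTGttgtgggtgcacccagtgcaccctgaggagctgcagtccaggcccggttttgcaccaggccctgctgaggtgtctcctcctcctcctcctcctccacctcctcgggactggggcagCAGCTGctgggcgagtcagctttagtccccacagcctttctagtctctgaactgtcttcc
The Stxbp2 window held 4 E-boxes, none of them CATATG or CAGCTG. The Rab27a window held 6, with 1 CATATG and 1 CAGCTG, and the Sytl1 window held 2, both CAGCTG. Windows were given for 8 of the 10 members (9 windows in all). Rab27b, the member called lower, and Vamp2 had no window, so neither was searched for E-boxes. The windows of Vamp8, Rab3d and Snap23 held no CANNTG, and the downstream Rab27a window alone among the 9 held CATATG. Among 32851 windows of the same length, 72.3% held CANNTG on either strand, 16.3% held CAGCTG and 3.91% held CATATG, the last 2 being forms of the first. Bhlha15 itself was at 207.4, 178.4 and 220.7 FPKM in T2DM LGs, against 283.0, 244.1 and 218.0 FPKM in vehicle LGs. On the deposited scale, limma gave it a log2 fold change of -0.29, an unadjusted p of 0.047 and an adjusted p of 0.146. The list of 7 acinar markers, which holds Bhlha15, had 2 called lower on this scale (1.7% of all genes). With median-of-ratios scaling, 3 of the 7 were called lower (3.99% of all genes). Bhlha15 was named after its values were seen.

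Rab27a and Rab27b encode close copies of 1 GTPase that tethers granules through shared effectors. In mouse, Rab27a is best known from melanosomes and from the granules of cytotoxic T cells, and Rab27b from exocrine and mast cells. Rab27b was at 6.30, 5.95 and 6.27 FPKM in T2DM LGs, against 8.78, 7.49 and 8.65 FPKM in vehicle LGs. The highest T2DM library was below the lowest vehicle library. T2DM LGs averaged 6.17 ± 0.19 FPKM and vehicle LGs 8.30 ± 0.71 FPKM (SD, n = 3 per group), and limma gave a log2 fold change of -0.37 with a standard error of 0.09 and an adjusted p of 0.0437. It was -0.55 with median-of-ratios scaling (adjusted p = 0.0226 from limma). When any 1 library was left out, Rab27b did not pass, with an adjusted p from limma of 0.0727 to 0.127 and a log2 fold change of -0.44 to -0.34. Over all 16 alternatives the adjusted p from limma or the linear model lay between 0.0226 and 0.127, and 8 of them kept the call. Mast cell markers summed to 34.3 to 59.0 FPKM in T2DM LGs and 14.7 to 29.4 FPKM in vehicle LGs. Of 5 tested, 1 was called higher (1 with median-of-ratios scaling), beside 10.5% of all genes (3.96% with that scaling). Named after their values were seen, Kit was the marker called, and Cpa3, Cma1, Tpsb2 and Mcpt4 overlapped between groups. The part of mast cells in the level of Rab27b was not tested.

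Rab27a was the more abundant of the pair in every library. It was at 32.8, 29.7 and 37.5 FPKM in T2DM LGs, against 37.6, 34.0 and 31.2 FPKM in vehicle LGs, and the groups overlapped (log2 fold change -0.04, 95% interval -0.31 to 0.22, adjusted p = 0.815 from limma). Median-of-ratios scaling gave -0.24 for Rab27a (adjusted p = 0.211 from limma). The ratio of Rab27a to Rab27b within a library, which no scaling between libraries can change, was 5.20, 4.98 and 5.99 in T2DM LGs and 4.28, 4.55 and 3.61 in vehicle LGs. The groups did not overlap, and the difference of log2 ratios was 0.38 (two-sided exact permutation p = 0.1, below which 3 against 3 libraries cannot go, adjusted p = 0.2 over 4 ratios). Rab27b thus held 15.7% ± 1.3 of the summed FPKM of the pair in T2DM LGs and 19.6% ± 1.9 in vehicle LGs (SD, n = 3 per group). Of the 50-base stretches in their annotated transcripts, 3.59% of those of Rab27a and 0.244% of those of Rab27b also occurred in transcripts of other genes. Gm27186, a processed pseudogene that overlaps Rab27a, shared the most with it, and reads may be split between them.

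The order of the FPKM levels, from high to low by the mean of all libraries, was Vamp8, Rab3d, Rab27a, Vamp2, Sytl1, Stxbp2, Rab11a, Snap23, Rab27b and Stx3. Vamp8 was 562nd and Stx3 7409th of the 12491 genes by level. The ranges over the 6 libraries overlapped between Vamp8 and Rab3d, Rab3d and Rab27a, Vamp2 and Sytl1, Sytl1 and Stxbp2, Stxbp2 and Rab11a, and Snap23 and Rab27b, so these neighbors did not differ beyond the spread over libraries. Within each library, however, Vamp2 was above Sytl1 and Stxbp2 above Rab11a in 6 of 6 libraries. Those of Rab27a and Vamp2, of Rab11a and Snap23, and of Rab27b and Stx3 were apart.

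Rab3d, a Rab of mature granules in lacrimal and other exocrine acini, varied more between libraries than any other of the 10 genes. It was at 29.6, 26.9 and 78.0 FPKM in T2DM LGs, against 25.7, 25.5 and 57.3 FPKM in vehicle LGs. Replicate 3 was high in both groups, and the other 4 libraries were close to each other. The log2 fold change was 0.24 (95% interval -0.80 to 1.27, adjusted p = 0.734 from limma), and it was -0.24 without T2DM replicate 3 and 0.61 without vehicle replicate 3. The coefficient of variation of Rab3d was 64.1% in T2DM LGs and 50.5% in vehicle LGs, whereas those of the other 9 genes lay between 1.75% and 18.0%. The spread of Rab3d within groups was above that of 99.1% of tested genes. A search made after these values were seen found Rab3d as the 1 gene, of 5501 whose mean reached 5 FPKM, whose lower replicate 3 library was at least 1.5 times the highest of the other 4 libraries (1.94 times). The gene lies at chr9:21907491-21918192 on GRCm38, overlaps no other annotated gene, and has 4 coding transcripts of 545 to 3886 bases. None of its 50-base stretches occurred in transcripts of other genes. Its transcripts were not separated here, and their part in the spread was not tested.

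Rab11a, a Rab of recycling endosomes and of transport to the apical membrane, was at 12.0, 13.0 and 14.6 FPKM in T2DM LGs, against 12.1, 11.6 and 11.3 FPKM in vehicle LGs. T2DM replicate 1 fell among the vehicle libraries (log2 fold change 0.16, adjusted p = 0.279 from limma), and median-of-ratios scaling gave a fold change of -0.03. The ratio of Rab3d to Rab11a was 2.46, 2.07 and 5.33 in T2DM LGs and 2.13, 2.20 and 5.05 in vehicle LGs (two-sided exact permutation p = 0.8, adjusted p = 0.8 over 4 ratios). Sytl1, a synaptotagmin-like effector that links Rab27 proteins to membranes, was at 18.2, 16.1 and 16.5 FPKM in T2DM LGs, against 19.5, 15.2 and 13.9 FPKM in vehicle LGs. The groups overlapped (log2 fold change 0.07, 95% interval -0.23 to 0.37, adjusted p = 0.723 from limma), and the scaled fold change was -0.12. Within the 4 Sytl genes analysed, Sytl1 held 59.1% ± 0.9 of the summed FPKM in T2DM LGs and 61.7% ± 3.1 in vehicle LGs (SD, n = 3 per group).

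Stxbp2 encodes the SM protein that binds Stx3 and is required in human for the release of granules by cytotoxic lymphocytes. It was at 19.2, 18.5 and 18.7 FPKM in T2DM LGs, against 15.4, 13.7 and 12.8 FPKM in vehicle LGs. All 3 T2DM libraries lay above all 3 vehicle libraries, and they were closer to each other than the vehicle libraries were. T2DM LGs averaged 18.8 ± 0.4 FPKM and vehicle LGs 13.9 ± 1.4 FPKM (SD, n = 3 per group), and limma gave a log2 fold change of 0.41 with a standard error of 0.09 and an adjusted p of 0.035. Median-of-ratios scaling gave 0.22 (adjusted p = 0.143 from limma) and did not pass. With 1 library left out, the call held without vehicle replicate 1 (adjusted p = 0.0441 from limma) and was lost without each of the other 5, with an adjusted p from limma of 0.0634 to 0.105 and a log2 fold change of 0.35 to 0.42. In these whole glands, more cells of a type and more RNA per cell cannot be told apart. The markers of T and NK cells, whose granules use Stxbp2, summed to 9.04 to 10.7 FPKM in T2DM LGs and 5.79 to 8.65 FPKM in vehicle LGs, with 1 of 7 called higher (0 with median-of-ratios scaling), near the 10.5% of all genes. None with a row was at 0 in all libraries, and the listed Prf1 had no row. Named after their values were seen, Cd3g, Cd3e and Cd8a had log2 fold changes of 0.05, -0.06 and 0.01. Nkg7, the 1 called higher, was at 0.84, and Gzma, Cd3d and Gzmb were at 0.26, 0.23 and 0.18. The part of T and NK cells or of duct cells in the level of Stxbp2 was not tested.

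**Figure D2:**
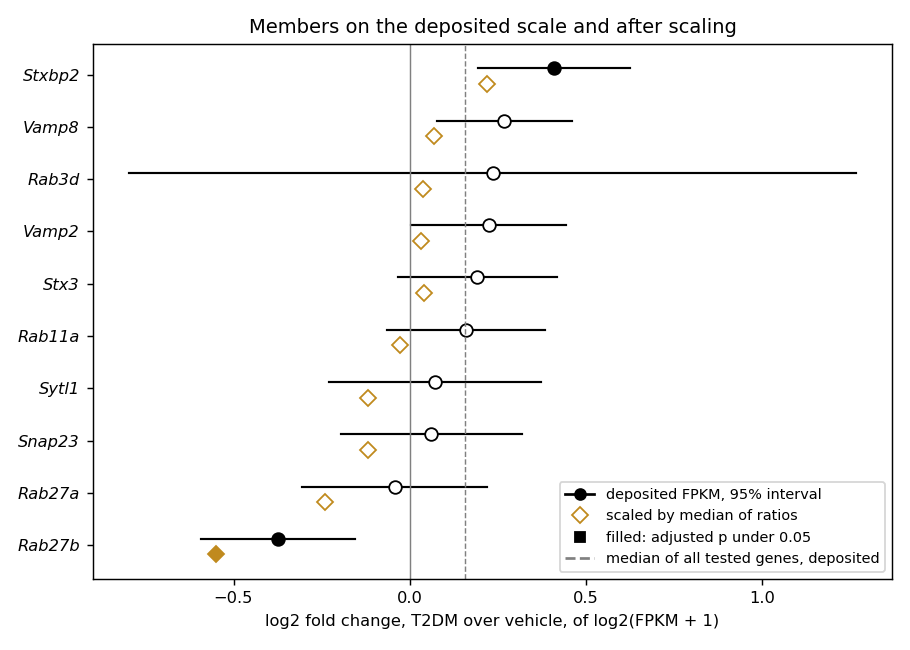
Log2 fold change of T2DM over vehicle for each of the 10 genes, on the deposited scale (circles with 95% intervals from limma) and with median-of-ratios scaling (diamonds), with filled symbols for an adjusted p under 0.05 and a dashed line at the median of all tested genes, 0.16. Rab27b is filled on both scales at -0.37 and -0.55, whereas Stxbp2 is filled on the deposited scale only, at 0.41.

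Vamp8 and Vamp2 encode SNAREs of the granule side. Vamp8, the more abundant, was at 51.9, 53.7 and 48.4 FPKM in T2DM LGs, against 44.4, 42.5 and 40.5 FPKM in vehicle LGs. The groups did not overlap, but Vamp8 did not pass the adjusted test (51.3 ± 2.7 against 42.4 ± 2.0 FPKM, SD, n = 3 per group, log2 fold change 0.27, 95% interval 0.08 to 0.46, adjusted p = 0.0712 from limma), and the scaled fold change was 0.07. Vamp2, known from synaptic vesicles and also from granules of acinar cells, was at 22.9, 20.7 and 23.9 FPKM in T2DM LGs, against 20.7, 18.5 and 18.2 FPKM in vehicle LGs. T2DM replicate 2 and vehicle replicate 1 had nearly the same level (log2 fold change 0.22, adjusted p = 0.144 from limma, scaled fold change 0.03). The ratio of Vamp8 to Vamp2 was 2.26, 2.599 and 2.03 in T2DM LGs and 2.15, 2.30 and 2.23 in vehicle LGs, with overlapping groups (two-sided exact permutation p = 0.8). Among 7 VAMP genes, Vamp8 held 45.9% ± 1.7 of the summed FPKM in T2DM LGs and 44.0% ± 0.5 in vehicle LGs (SD, n = 3 per group, exact two-sided permutation p = 0.2). Vamp7 of late endosomes and Vamp3 of recycling endosomes came next after Vamp2, at 15.0 ± 0.8 and 12.4 ± 0.3 FPKM in T2DM LGs, against 15.9 ± 1.5 and 10.9 ± 1.2 FPKM in vehicle LGs.

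Stx3 and Snap23 encode SNAREs of the plasma membrane. Stx3, the syntaxin of apical membranes, had the lowest level of the 10 genes, at 3.36, 3.24 and 3.31 FPKM in T2DM LGs, against 2.74, 3.06 and 2.52 FPKM in vehicle LGs. The groups did not overlap, but the difference did not pass the test (log2 fold change 0.19, 95% interval -0.03 to 0.42, adjusted p = 0.207 from limma). The scaled fold change was 0.04 (adjusted p = 0.805 from limma). Stx3 held 24.1% ± 0.8 of the summed FPKM of 4 syntaxins in T2DM LGs and 26.7% ± 3.6 in vehicle LGs (SD, n = 3 per group, exact two-sided permutation p = 0.2), and Stx4a, a syntaxin of basolateral membranes, was the most abundant of the 4, at 8.64 ± 0.62 FPKM in T2DM LGs and 6.65 ± 1.36 FPKM in vehicle LGs (adjusted p = 0.135 from limma). Snap23, the SNAP of most cells outside neurons, was at 9.47, 7.71 and 7.42 FPKM in T2DM LGs, against 8.32, 7.57 and 7.46 FPKM in vehicle LGs. The vehicle range lay within the T2DM range (log2 fold change 0.06, 95% interval -0.20 to 0.32, adjusted p = 0.722 from limma), and the scaled fold change was -0.12. Its share among 3 SNAP genes was 31.9% ± 3.8 in T2DM LGs and 30.4% ± 1.2 in vehicle LGs (SD, n = 3 per group, exact two-sided permutation p = 0.7).

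**Figure D3:**
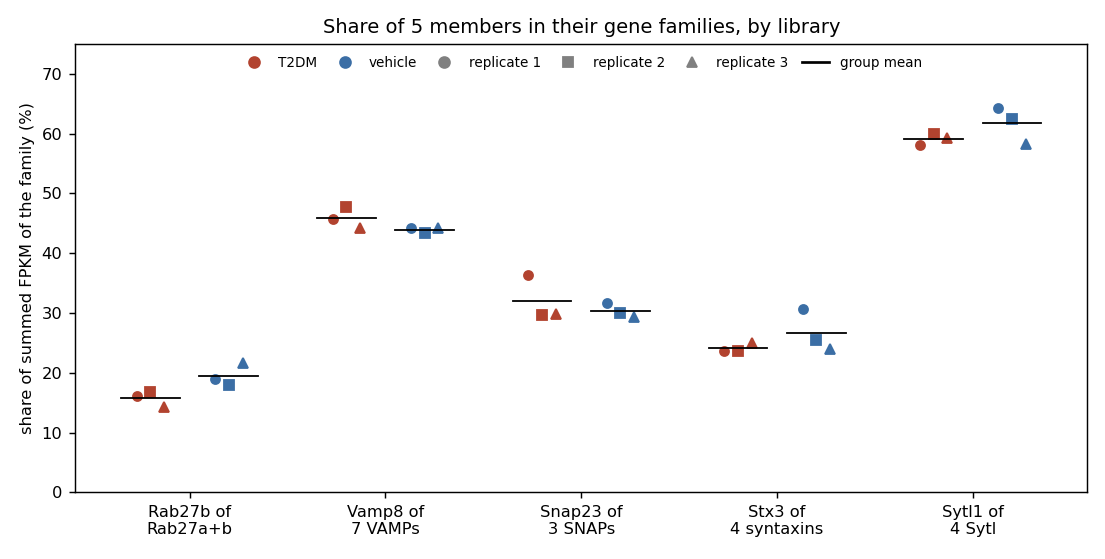
Share of 5 members in the summed FPKM of their gene families (percent), by library, with T2DM in red left of vehicle in blue, shapes for the replicate number and a black line at the group mean. The groups do not overlap for Rab27b (15.7% and 19.6% on average in T2DM and vehicle), and they overlap for the other 4 shares.

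Around these 10 genes, 8 lists of vesicle traffic genes held 111 tested genes, of which 3 were higher and 2 were lower in T2DM LGs and 106 did not pass, beside 10.5% and 1.7% of all tested genes. Of 18 other Rab genes, Rab1a of ER to Golgi traffic was lower, at 90.3 ± 3.7 FPKM in T2DM LGs and 119 ± 10 FPKM in vehicle LGs (SD, n = 3 per group, log2 fold change -0.39, adjusted p = 0.0352 from limma), and none was higher. At an unadjusted p under 0.05, limma had 3 higher and 3 lower, beside 28.5% and 4.57% of all tested genes. The unmoderated linear model had 2 higher and 3 lower, and with median-of-ratios scaling 3 were called lower. Of 17 Rab regulators, 2 were higher and 0 were lower by limma, and at an unadjusted p under 0.05 limma had 2 higher and 0 lower and the linear model 5 higher and 0 lower. Dennd4c, an exchange factor for Rab10, was at 6.76, 5.01 and 6.72 FPKM in T2DM LGs and 4.05, 3.87 and 4.08 FPKM in vehicle LGs (adjusted p = 0.0385 from limma). Tbc1d10b, a GTPase activator of Rab27 and other Rabs, was at 3.78 ± 0.21 FPKM in T2DM LGs and 2.50 ± 0.44 FPKM in vehicle LGs (SD, n = 3 per group, adjusted p = 0.045 from limma). Of 19 Rab effectors and myosins, Rab11fip5, which binds Rab11, was higher, at 3.22 ± 0.28 FPKM in T2DM LGs and 1.92 ± 0.08 FPKM in vehicle LGs (log2 fold change 0.53, adjusted p = 0.0237 from limma), and none was lower, also at an unadjusted p or by the linear model. Of 12 SNAREs and partners of the ER and Golgi, Bet1 was lower, at 17.7 ± 1.2 FPKM in T2DM LGs and 26.4 ± 1.0 FPKM in vehicle LGs (log2 fold change -0.55, adjusted p = 0.0181 from limma), and none was higher, also at an unadjusted p or by the linear model. At an unadjusted p under 0.05, limma had 3 lower and the linear model 1. The median log2 fold change of this ER and Golgi list was -0.13, beside 0.16 over all genes. Of 16 alternatives, 13 kept the call of Bet1, 10 that of Rab11fip5, 8 that of Rab1a, 7 that of Dennd4c and 6 that of Tbc1d10b. With 1 library left out, it was kept in 4, 2, 0, 1 and 0 fits. With median-of-ratios scaling, 0 Rab regulators were called higher.

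No gene passed limma's adjusted test among 18 other SNAREs of the plasma membrane and endosomes, 13 SM proteins and factors of SNARE disassembly, 5 synaptotagmins and other calcium sensors and 9 exocyst subunits. At an unadjusted p under 0.05 by limma, 7, 2, 2 and 1 genes of these 4 lists were higher and 0, 0, 1 and 0 were lower, and by the linear model 4, 2, 1 and 0 were higher and none was lower. Over all 12135 tested genes, 28.5% were higher and 4.57% lower by limma, and 2960 genes were higher and 488 lower by the linear model. Rab26, the other Rab that Mist1 acts on in mouse, was at 7.69 ± 0.76 FPKM in T2DM LGs and 6.92 ± 0.69 FPKM in vehicle LGs (SD, n = 3 per group, adjusted p = 0.42 from limma) and was named after its value was seen. With median-of-ratios scaling, 1 of the 111 genes was higher and 6 were lower, beside 3.96% and 3.99% of all genes.

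**Figure D4:**
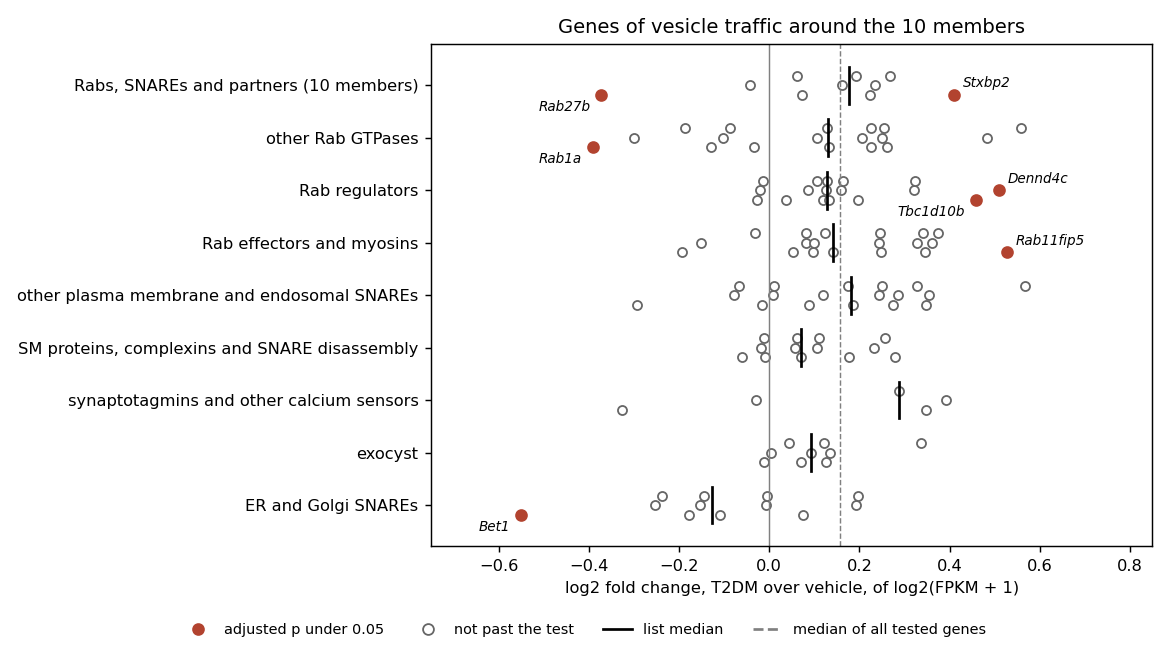
Log2 fold change of T2DM over vehicle for the 10 genes and for the tested genes of 8 lists of vesicle traffic, on the deposited scale, with red points for an adjusted p under 0.05, black lines at list medians and a dashed line at the median of all tested genes, 0.16. The named points are those past the test, with Bet1, Rab1a and Rab27b below 0 and Rab11fip5, Dennd4c, Tbc1d10b and Stxbp2 above it, among open points as high or higher, and the ER and Golgi SNAREs have the lowest list median, -0.13.

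The genes closest in profile to the members that passed the test were found as the smallest Euclidean distance of log2(FPKM + 1) over the 6 libraries, each gene centred on its own mean, among 5501 genes. For Stxbp2 they were 1110004F10Rik, Vps11 and Gabarapl2, at distances of 0.053, 0.067 and 0.081. Vps11, a subunit of the HOPS tethering complex, was at 6.42, 6.50 and 6.25 FPKM in T2DM LGs, against 5.20, 4.32 and 4.13 FPKM in vehicle LGs. For Rab27b they were Tob1, Polb and Odc1, at 0.11, 0.13 and 0.14. Odc1, the first enzyme of polyamine synthesis, was at 22.8, 23.4 and 24.7 FPKM in T2DM LGs, against 34.5, 30.0 and 34.6 FPKM in vehicle LGs. Both were chosen for this likeness, so that their separation between groups follows from the choice.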

How the data were processed

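Poly(A) RNA of LGs from 3 T2DM and 3 vehicle samples was sequenced. The authors used cutadapt for trimming and HISAT2 for alignment to GRCm38, estimated transcripts with StringTie 1.2.3 and computed gene-level FPKM with Ballgown 2.6.0, and these FPKM are the deposited values. FPKM are relative to the mapped fragments of a library, so that abundant genes shift the others, and no further scaling is stated. The labels name human builds, but gene IDs are of mouse, and 10903 of 12491 loci match GENCODE M21 on GRCm38.

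Main test: limma 3.58.1 (R 4.3.3) on log2(FPKM + 1), mean-variance trend, two-sided, a mean of at least 0.5 FPKM in 1 group, Benjamini-Hochberg over 12135 genes. Fold changes on this scale understate low genes. Ratios and shares were tested by exact permutation (scipy 1.17.1). Pairs or families used the genes analysed here, with Stx4a for Stx4. The code was tested on simulated data. Members, lists and tests were chosen with earlier results of these data known. Named were all members, up to 5 genes per list and direction past the test, genes of the ratios and shares, and the 3 genes nearest to each called member. Alternatives were other filters, pseudocounts, variance models, scalings, a replicate block, the study's thresholds (unadjusted p under 0.05, a fold change of 1.5) and each library left out. The study's thresholds were applied to limma's p and fold change on log2(FPKM + 1), not to values from Ballgown. The ratio of Snap23 to Snap25 was not analysed here. Of the 4 ratios and 6 shares over which p-values were adjusted, 1 each is not reported here.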

Additional observations from a re-analysis of the deposited data

How the results depend on the processing

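Of the 10 members, Stxbp2 and Rab27b kept their direction under all 16 alternatives, with 7 and 8 of these keeping the call, and no other member passed under any. With median-of-ratios scaling, 478 genes were higher and 481 lower, no member was higher, and 1 and 6 pathway genes were higher and lower. By the upper quartile these were 534, 423, 0, 1 and 5. With the linear model all 6 counts were 0 (2960 genes higher and 488 lower at an unadjusted p). At the study's thresholds, applied to limma's p and fold change, no member and no pathway gene passed in either direction. The pseudocount shrinks this fold change. By the ratio of mean FPKM, some pathway genes were past 1.5, among them Rab11fip5 (1.67), Dennd4c (1.54) and Tbc1d10b (1.52). The highest such ratio of a member was 1.35, for Stxbp2. With 1 library left out, 25 to 886 genes were higher and 16 to 130 lower, 0 to 1 members higher and 0 lower, and 0 to 3 pathway genes higher and 0 to 1 lower. Sign changes were seen in members that passed under no alternative. Scaled by the median of ratios, Rab11a, Snap23 and Sytl1 were at -0.026, -0.12 and -0.12, and by the upper quartile at -0.0076, -0.10 and -0.10. With 1 library left out, log2 fold changes ran from -0.13 to 0.035 for Rab27a, -0.24 to 0.61 for Rab3d, -0.035 to 0.12 for Snap23 and -0.025 to 0.20 for Sytl1. The difference of log2 ratios ran from -0.054 to 0.12 for Vamp8/Vamp2 and from -0.35 to 0.48 for Rab3d/Rab11a, and that of the Snap23 share from -0.61 to 2.71 percentage points. The cause of these changes was not tested. With 3 libraries per group and no read counts, counting intervals of single genes could not be given.

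Same-numbered libraries correlated at 0.03, 0.02 and -0.02, and 3 of 6 libraries correlated best with their own number. Rab3d was high in replicate 3 of both groups, and its standard error was 0.44 without and 0.11 with a replicate block. Whether libraries of the same number share a batch was not tested. With a replicate block, 551 genes were higher and 98 lower, no member passed (0 higher and 0 lower), and 0 pathway genes were higher and 1 was lower.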
